A study of Mus musculus with 4 samples.

Results

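The vascular endothelial growth factors (VEGFs) and the angiopoietins are 2 families of secreted proteins that govern the growth, branching and stability of blood and lymph vessels. In all, 9 genes of these families were followed in mouse embryonic fibroblasts: the VEGF ligands Vegfa, Vegfb, Vegfc and Pgf, the angiopoietins Angpt1, Angpt2 and Angpt4, and the angiopoietin-like genes Angptl2 and Angptl4. They were chosen by name, as every non-control array probe whose accession is a RefSeq transcript of one of them, which gave 17 probes of the 43553 on the array and 9 of the 17462 genes that could be named. Angpt4 and Angptl2 had 1 probe each, Angptl4 had 3, and the other 6 genes had 2. On build GRCm38.p6, Vegfa spans chr17:46016993-46032377, Vegfb chr19:6982472-6987651, Vegfc chr8:54077532-54186454 and Pgf chr12:85166637-85177785. Angpt1 spans chr15:42424667-42676977, Angpt2 chr8:18690263-18741562 and Angpt4 chr2:151911207-151945337. Angptl2 spans chr2:33215951-33247725 and Angptl4 chr17:33774900-33781575; where in these genes the probes lie was not worked out, since the array was designed on another build.

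VEGF ligands signal through the receptor tyrosine kinases encoded by Flt1, Kdr and Flt4, with neuropilins as co-receptors. Angiopoietins bind the receptor TIE2, encoded by Tek: the product of Angpt1 activates it, and that of Angpt2 can oppose or mimic this activation depending on context. Angiopoietin-like proteins share the domain layout of angiopoietins but do not act through TIE2. The receptors lie mainly on endothelial cells, while fibroblasts and other supporting cells of connective tissue are a source of several of the ligands.

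The cells were cultured in DMEM with 10% fetal bovine serum and 1% penicillin and streptomycin. Cells at passage 7, where replicative senescence set in, were compared with growing cells at passage 2, with 2 one-colour arrays in each. Per the labels, 3 independent cultures were passaged every 3 to 4 days and their RNA was pooled before the expression analysis, so the 2 arrays of a passage may be repeat measurements of 1 pool and the p-values below measure the spread between arrays only. Strain, genotype and embryonic age are not given in the sources used here, and both groups share the same medium.

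A level below is log2 of an array's processed spot signal after division by that array's 75th percentile, so that 0 marks the percentile itself, and a change is the mean level at passage 7 minus that at passage 2. The 75th percentile stood at 963.7 and 402.3 for passage 7 and at 1024 and 1404 for passage 2. All 4 arrays lay on 1 slide, in positions 3 and 4 for passage 7 and 1 and 2 for passage 2, so the place on the slide and the passage cannot be told apart. The robust SD per array was 0.19 at passage 7 and 0.33 at passage 2 across the 13848 genes tested. It was taken from the median-centred difference between the 2 arrays of a passage and scaled to 1 array. The difference between 2 arrays therefore has a wider spread. The median change of all these genes was 0.20. The label of the passages was checked on Cdkn2a, whose products p16 and p19 accumulate in senescing mouse fibroblasts: its level was 2.67 and 2.33 at passage 7, against -0.81 and -1.45 at passage 2, a change of 3.63 ± 0.29 (SE; adjusted p = 0.0058, limma). Of the 12 fibroblast markers listed, 11 were on the array, and all 11 were well above background on all 4 arrays. Of 16 endothelial markers, 10 were well above background on all 4 arrays and 1 on none; among the defining ones, Pecam1 and Cdh5 were each detected well above background on 1 of 2 arrays at passage 7 and 2 of 2 at passage 2, and Cldn5 was the one detected on no array.

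Promoter sequence is shown for 4 of the genes to set members with unlike changes side by side. The RefSeq promoter table of build GRCm38.p6 held 6 of the 9 genes, and Angpt1, Angpt2 and Angptl4 had no entry. Each line gives the 250 bases before the transcription start, read 5′ to 3′ on the strand of the gene: Vegfa from chr17:46032378-46032627 (minus strand), Vegfb from chr19:6987652-6987901 (minus strand), Pgf from chr12:85177314-85177563 (minus strand) and Angpt4 from chr2:151910957-151911206 (plus strand). For Vegfa and Pgf the table holds 2 starts, of which 1 is shown, and the Pgf window lies inside the gene span given above. Capitals mark any match, on either strand and with overlaps allowed, to ACGTG or GCGTG (the core bound by hypoxia-inducible factors), GGGCGG (the GC box bound by SP1), AGGTCA (the half-site of nuclear receptors such as the PPARs) and TATAAA (the TATA box).
Vegfa: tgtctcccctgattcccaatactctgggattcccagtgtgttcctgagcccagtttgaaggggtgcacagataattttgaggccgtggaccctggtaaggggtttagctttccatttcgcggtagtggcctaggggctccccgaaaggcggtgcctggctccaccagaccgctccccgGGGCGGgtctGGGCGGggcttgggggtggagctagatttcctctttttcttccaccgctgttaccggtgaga
Vegfb: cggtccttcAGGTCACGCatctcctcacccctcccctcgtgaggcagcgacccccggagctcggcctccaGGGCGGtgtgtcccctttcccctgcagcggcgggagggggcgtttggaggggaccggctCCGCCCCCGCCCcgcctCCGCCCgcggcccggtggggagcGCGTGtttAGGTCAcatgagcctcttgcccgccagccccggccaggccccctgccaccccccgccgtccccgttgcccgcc
Pgf: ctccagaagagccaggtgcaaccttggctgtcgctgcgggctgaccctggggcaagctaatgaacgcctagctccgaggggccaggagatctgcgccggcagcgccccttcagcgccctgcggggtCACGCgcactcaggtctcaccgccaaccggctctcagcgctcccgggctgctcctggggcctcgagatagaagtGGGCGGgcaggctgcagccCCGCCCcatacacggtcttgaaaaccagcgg
Angpt4: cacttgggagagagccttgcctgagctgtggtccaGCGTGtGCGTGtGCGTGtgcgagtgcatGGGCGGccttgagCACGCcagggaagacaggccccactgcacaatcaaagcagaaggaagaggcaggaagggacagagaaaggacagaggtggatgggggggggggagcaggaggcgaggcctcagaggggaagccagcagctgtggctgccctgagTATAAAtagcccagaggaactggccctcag

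The GC box was the motif that these windows shared: all 6 promoters read held GGGCGG, with 2 matches in Vegfa, 4 in Vegfb and 1 in Angpt4, against 32.7% of 32851 promoters. These 32851, called all promoters here, are those of the table with 1 chromosome left out. No promoter of the 6 held ACGTG, which 16.6% of all promoters hold. GCGTG was found in 3 of 6, with 4 matches in Angpt4, 2 in Vegfb and 1 in Pgf, against 28.2% of all promoters. AGGTCA was found in Vegfb alone, with 2 matches, against 14% of all promoters, and TATAAA in Angpt4 alone, against 12.4%. The 6 windows ran from 59.2% GC for Vegfa to 76.4% for Vegfb, where the median of all promoters was 52.4%. These are matches of letters in a short window, and a gene without a match may carry the motif elsewhere.

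Of the 9 genes, 2 rose and 2 fell at passage 7: Angptl4 and Vegfb rose, and Angpt1 and Angpt2 fell. A gene was called where its adjusted p was below 0.05 and its passages differed 2-fold or more. Across all 13848 genes tested 9.99% rose, 9.42% fell and 19.4% were called in either direction, which is the background for the 4 of 9; with so few genes no test of that share was made. Leaving out either passage 7 array or passage 2 replicate 2 lowered the number of calls, both among the 9 and among all genes. Leaving out passage 2 replicate 1 raised both. Without 1 array, the changes ran from 1.71 to 2.44 for Angptl4 and from 0.82 to 1.36 for Vegfb. They ran from -1.17 to -0.97 for Angpt1 and from -1.08 to -0.98 for Angpt2. Without the fold minimum, 6 of the 9 passed (3 higher and 3 lower), against 25.3% of all genes, and 7 had an unadjusted p under 0.05, against 41.6% of all genes. The passage 7 and passage 2 arrays did not overlap for 8 of the 9 genes, with Vegfc the exception, against 68.2% of all genes. The median change of the 9 was -0.06, against 0.20 over all genes, a shift that was 0.02 under quantile normalisation and 0.03 under median scaling. Relative to it, the changes were 1.88 for Angptl4, 0.89 for Vegfb, 0.72 for Angpt4, 0.02 for Angptl2, -0.26 for Vegfc, -1.10 for Pgf, -1.12 for Vegfa, -1.23 for Angpt2 and -1.27 for Angpt1. All 17 probes were well above background on all 4 arrays, so no gene of the 9 was lost to the filter on dim probes. In these bulk samples, fewer cells that make a transcript and less transcript per cell cannot be told apart.

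**Figure D1:**
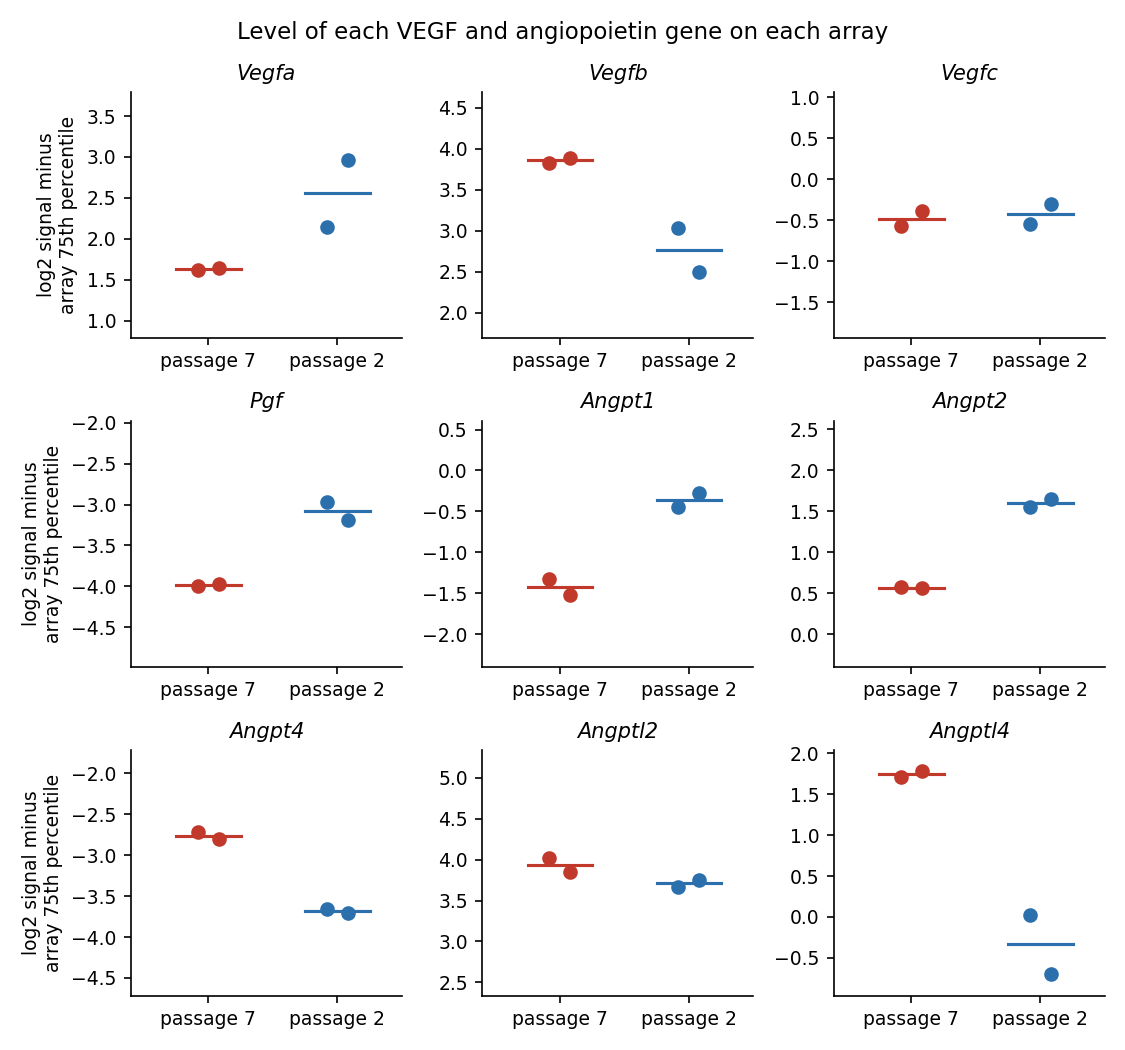
Level of each of the 9 genes on each array (y axis, log2 signal minus the array's 75th percentile, at the probe that represents the gene; each panel spans the same number of log2 units), with passage 7 (red) left of passage 2 (blue); each point is 1 of 2 arrays and each line is the mean. The points of the passages overlap for Vegfc only, and Angptl4 has the widest separation, at 1.70 and 1.78 in passage 7 against 0.03 and -0.70 in passage 2.

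Of the 4 VEGF ligands, 1 was called, Vegfb, which rose, while the estimates for Vegfa and Pgf lay below 0. Vegfa, the main driver of vessel sprouting and permeability, had a level of 1.62 and 1.65 at passage 7, against 2.14 and 2.97 at passage 2. Both passage 7 arrays lay below both passage 2 arrays, but the passage 2 arrays differed from each other by nearly as much as the passage means did. The change was -0.92 ± 0.32 (SE; 95% interval -1.76 to -0.08) with an adjusted p of 0.0995, so Vegfa was not called. Its 2 probes gave -0.92 and -0.89 at the probe level, and 11.6% of all genes had a lower change. Leaving out passage 2 replicate 1 gave -1.33 (adjusted p = 0.0277), past both thresholds, and leaving out passage 2 replicate 2 gave -0.51.

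Vegfb, which binds only FLT1 among the VEGF receptors and is known for its part in coronary vessels and in fatty acid uptake by endothelium, was higher at passage 7. Its level was 3.83 and 3.89 at passage 7, against 3.03 and 2.50 at passage 2. Both passage 7 arrays were high and close together, and the groups did not overlap. Vegfb rose by 1.09 ± 0.25 on the log2 scale (95% interval 0.44 to 1.74), which is 2.13-fold (adjusted p = 0.0381), with 10.9% of genes above it. The second probe gave 1.13 ± 0.29, and in the fit over probes neither passed the adjusted threshold (adjusted p = 0.0522 and 0.0608). The call was lost without passage 7 replicate 1 (adjusted p = 0.123), without passage 7 replicate 2 (0.162) and without passage 2 replicate 2 (0.0666), and the change was 0.76 after quantile normalisation.

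Vegfc, the ligand of FLT4 that drives the growth of lymphatic vessels, showed no difference that these arrays could resolve. Its level was -0.57 and -0.39 at passage 7, against -0.54 and -0.30 at passage 2, and the arrays of the passages interleaved. The change was -0.06 ± 0.20 (adjusted p = 0.84), with a 95% interval of -0.58 to 0.46 that leaves room for a moderate change in either direction. The second probe gave 0.01 ± 0.22.

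Pgf encodes placental growth factor, which binds FLT1 and competes there with the product of Vegfa. Its level was -3.99 and -3.96 at passage 7, against -2.97 and -3.19 at passage 2, with processed signals of 60.5 and 25.8 against 131 and 153, so it was a dim probe that was still well above background on every array. Both passage 7 arrays were low and the groups did not overlap. The change was -0.90 ± 0.19 (95% interval -1.39 to -0.41; adjusted p = 0.0316), which is 1.87-fold lower and under the fold minimum. The second probe gave -0.76 ± 0.28 (adjusted p = 0.132 over probes). Of the 9 changes, that of Pgf moved most under the normexp background correction with quantile normalisation, to -0.47, and it passed 2-fold after quantile normalisation (-1.04) and median scaling (-1.07).

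Of the angiopoietins, Angpt1 and Angpt2 fell by nearly the same amount at their brighter probes. Angpt1, the TIE2 agonist made by mural and mesenchymal cells, had a level of -1.32 and -1.52 at passage 7, against -0.44 and -0.27 at passage 2. The groups did not overlap, and the gap between them was several times the spread within either. The fall was -1.07 ± 0.19 (95% interval -1.57 to -0.56), which is 2.09-fold (adjusted p = 0.0229). The second probe gave -0.66 ± 0.22 (adjusted p = 0.105 over probes), and this span of 0.40 between 2 probes was the widest of the 7 genes with more than 1 probe. With the mean of both probes in place of the brighter one, Angpt1 changed by -0.86 and was not called.

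Angpt2, in mice and in humans an antagonist or weak agonist of TIE2 that is released by activated endothelium, had a level of 0.57 and 0.56 at passage 7, against 1.55 and 1.64 at passage 2. The arrays of a passage lay within 0.10 of each other, far less than the distance between passages. The fall was -1.03 ± 0.17 (95% interval -1.49 to -0.57), which is 2.04-fold (adjusted p = 0.0202), and the second probe gave -1.07 ± 0.19, also called over probes. Both falls sit close to the fold minimum. The calls of Angpt1 and of Angpt2 were lost without passage 7 replicate 1, passage 7 replicate 2 or passage 2 replicate 2. In each case the adjusted p no longer passed, also where the change stayed past 2-fold. The changes without 1 array stayed between -1.17 and -0.97 for Angpt1 and between -1.08 and -0.98 for Angpt2.

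Angpt4, the third TIE2 ligand, which was named angiopoietin-3 when the mouse gene was first described, pointed the other way. Its level was -2.72 and -2.81 at passage 7, against -3.66 and -3.71 at passage 2. The groups did not overlap and each was tight. The change was 0.92 ± 0.17 (95% interval 0.46 to 1.38; adjusted p = 0.0256), which is 1.89-fold higher and under the fold minimum. It had a single probe of low signal (146 and 57.5 at passage 7, against 81.2 and 107 at passage 2), and its change was 0.56 with the normexp correction.

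Angptl4, a secreted inhibitor of lipoprotein lipase that also acts on vessel permeability and is a known target of PPARs and of hypoxia-inducible factors, had the widest change of the 9. Its level was 1.70 and 1.78 at passage 7, against 0.03 and -0.70 at passage 2. The passage 7 arrays agreed closely, the passage 2 arrays differed by more, and the groups lay far apart. Angptl4 rose by 2.08 ± 0.30 on the log2 scale (95% interval 1.30 to 2.85), which is 4.22-fold (adjusted p = 0.0143), and 98.0% of all genes had a lower change. The other 2 probes gave 2.23 ± 0.25 and 2.22 ± 0.27. It was the only one of the 9 called under each of 15 other settings, with a change between 1.71 and 2.44.

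Angptl2, a secreted glycoprotein linked to inflammation in adipose tissue and to remodelling of connective tissue, was among the genes with little difference. Its level was 4.01 and 3.84 at passage 7, against 3.66 and 3.75 at passage 2. The passage 7 arrays were higher on both, by less than 0.4. The change was 0.22 ± 0.18 (95% interval -0.26 to 0.70; adjusted p = 0.414), close to the median change of all genes, and its sign turned under quantile normalisation (-0.18) and under normexp (-0.12).

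**Figure D2:**
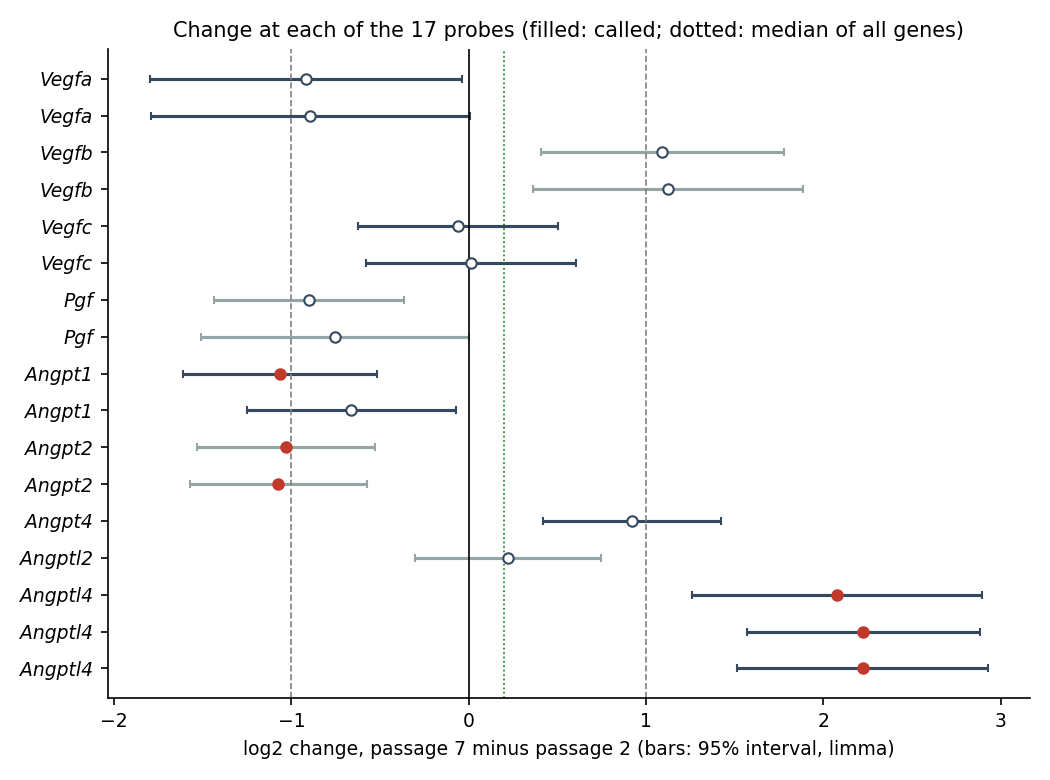
Change at each of the 17 probes (x axis, log2, passage 7 minus passage 2), with 1 row per probe, the point at limma's estimate and the bar at its 95% interval; filled points passed both thresholds over all probes, dashed lines mark 2-fold and the dotted line the median of all genes. All 3 Angptl4 probes and both Angpt2 probes are filled, as is 1 of the 2 Angpt1 probes, while the Vegfb probes sit past 2-fold unfilled.

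Fitted probe by probe, 6 of the 17 probes were called, 3 higher (all of Angptl4) and 3 lower (both of Angpt2 and 1 of Angpt1), against 17.2% of the 30877 probes tested. The number called changed when 1 array was left out, and the share of all probes called under those settings was not worked out. Probes of 1 gene differed in change by 0.03 for Vegfa and for Vegfb, 0.04 for Angpt2, 0.07 for Vegfc, 0.14 for Pgf and 0.15 for Angptl4. Probes of a gene share its transcript and the array, so they repeat a measurement and are not further samples.

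Differences between 2 genes on the same array do not depend on the single factor by which an array is scaled. Quantile normalisation and the normexp correction can still change them. They were read for 6 pairs picked after the values were seen, with no test. The level of Vegfb minus that of Vegfa, set to 0 at its passage 2 mean, was 1.99 and 2.03 at passage 7, against 0.68 and -0.68 at passage 2. The same difference for Pgf minus Vegfb was -1.97 and -2.01 at passage 7, against -0.15 and 0.15 at passage 2. Vegfc minus Vegfa gave 0.78 and 0.94 at passage 7, against 0.29 and -0.29 at passage 2. Vegfb was thus higher relative to Vegfa and to Pgf on both passage 7 arrays than on either passage 2 array.
For Angpt2 minus Angpt1 the values were -0.06 and 0.13 at passage 7, against 0.04 and -0.04 at passage 2, and the groups overlapped. Angpt4 minus Angpt1 gave 1.93 and 2.04 at passage 7, against 0.11 and -0.11 at passage 2. Angptl4 minus Angptl2 gave 1.73 and 1.98 at passage 7, against 0.41 and -0.41 at passage 2. With each gene read at the probe that represents it, the pair of Angpt1 and Angpt2 was the one of these 6 whose difference did not separate the passages. The dimmer Angpt1 probe changed by less (-0.66), so this result holds for the brighter probe only.

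**Figure D3:**
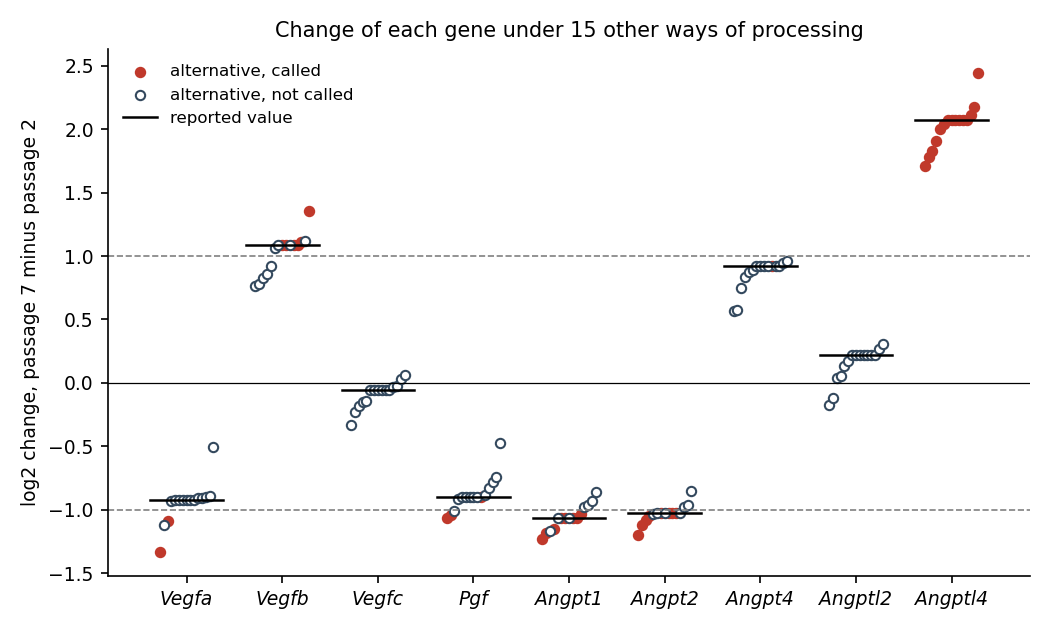
Change of each of the 9 genes (y axis, log2, passage 7 minus passage 2) as reported (black line) and under 15 other ways of processing (points, in rising order within a gene; filled where the gene was called); dashed lines mark 2-fold. Angptl4 is filled throughout, while Vegfb, Angpt1 and Angpt2 sit at the 2-fold line, with 6, 8 and 8 of their 15 points filled.

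The other ligands of these families included 2 that fell and none that rose among 6 tested. Angptl1, which restrains vessel growth, fell by 2.04 ± 0.27 (adjusted p = 0.0125), with a level of -6.03 and -6.50 at passage 7, against -4.44 and -4.01 at passage 2; at passage 7 only 1 of its 2 spots rose well above background. Angptl7, known from cornea and trabecular meshwork in humans, fell by 1.28 ± 0.23 (adjusted p = 0.0224), with -1.91 and -1.84 at passage 7, against -0.82 and -0.37 at passage 2. Vegfd, like Vegfc a lymphatic growth factor, changed by 0.59 ± 0.19 (adjusted p = 0.0859). Angptl8, which also regulates lipoprotein lipase, changed by 0.07 ± 0.47 (adjusted p = 0.923), and Angptl6 by -0.25 ± 0.25 (adjusted p = 0.496). The median change of the 6 was -0.09, and 1 of them was called with either of the passage 7 arrays left out. Beside this list and those that follow stand the values of all genes, a median change of 0.20 with 9.99% called higher and 9.42% lower. These shares hold for the reported setting. With 1 array left out the share over all genes changed too, so list counts without 1 array are not set against them.

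None of 14 receptors and co-receptors tested was called by limma, at a median change of 0.32, and 5 of them had an unadjusted p under 0.05, where 41.6% of all genes did. Itgb1, an integrin subunit used by angiopoietin-like proteins, passed the adjusted p alone (1.00 ± 0.24, adjusted p = 0.0458), just under 2-fold; of its other 2 probes, 1 was called over probes (1.08, adjusted p = 0.0389) and 1 was not (0.70, adjusted p = 0.114). Of the VEGF receptors, Flt1 changed by -0.28 ± 0.23 (adjusted p = 0.404), Kdr by 0.84 ± 0.31 (adjusted p = 0.115) and Flt4 by 0.49 ± 0.23 (adjusted p = 0.188). The co-receptors Nrp1 and Nrp2 changed by 0.22 ± 0.22 and 0.75 ± 0.23 (adjusted p = 0.497 and 0.0747), the second probe of Nrp2 giving -0.25. Tek changed by -0.91 ± 0.24 (adjusted p = 0.0574) and Tie1 by 1.09 ± 0.40 (adjusted p = 0.111), so neither was shown to differ, although both estimates were near 2-fold. The second Tek probe gave -1.26 ± 0.32 (adjusted p = 0.0603 over probes). The second Tie1 probe gave 0.64 ± 0.58 (adjusted p = 0.47 over probes), further from 2-fold. Without passage 2 replicate 2, 3 receptors were called, and without passage 2 replicate 1, 1 was.

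Among 14 tested genes of extracellular proteins that bind, cleave or oppose these factors, 3 rose and 2 fell, at a median change of 0.52. Lpl, the lipase that the product of Angptl4 inhibits, fell by 2.03 ± 0.18 (adjusted p = 0.00647), and averaged -1.05 ± 0.07 at passage 7, against 0.98 ± 0.07 at passage 2 (SD, n = 2 each). A second Lpl probe gave 3.26 ± 3.44, too scattered to read. Col18a1, the source of endostatin, fell by 2.71 ± 0.18 (adjusted p = 0.00518). Mmp3, which encodes a protease that can cut VEGF, rose by 1.33 ± 0.20 (adjusted p = 0.0156). Ccn2, for a matrix protein that binds VEGF, rose by 1.24 ± 0.19 (adjusted p = 0.0161). Adamts1, for a protease known to sequester VEGF, rose by 1.04 ± 0.22 (adjusted p = 0.0333). Such actions were the ground for listing these genes, and the arrays measured RNA only. With either of the passage 7 arrays left out, 2 of the 14 were called, both of them lower.

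Hypoxia-inducible factors are known inducers of Vegfa and Angptl4. Of 27 tested genes of the factors, their regulators and their targets, 1 rose and 2 fell, at a median change of 0.24. Hif1a itself fell by 1.12 ± 0.18 (adjusted p = 0.019), with 3.40 and 3.42 at passage 7, against 4.43 and 4.63 at passage 2, and its other 2 probes gave -1.17 and -1.32. Epas1, which encodes the related factor HIF-2 alpha, changed by 0.99 ± 0.20 (adjusted p = 0.0282), just under 2-fold; its other 2 probes gave 0.99 and 1.02, of which the higher was called over probes (adjusted p = 0.0373). P4ha1, a collagen prolyl hydroxylase, rose by 1.38 ± 0.17 (adjusted p = 0.0113), and Ndrg1, a stress-response gene, fell by 1.31 ± 0.17 (adjusted p = 0.0124). With either of the passage 7 arrays left out, 0 of the 27 were called.

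Of 22 tested PPAR genes and fatty acid targets, 6 rose and 2 fell, at a median change of 0.40. Ppard, whose product is known to induce Angptl4, rose by 1.03 ± 0.18 (adjusted p = 0.0224). Ppara and Pparg, whose products can also induce it, were not called, at 0.28 ± 0.29 and -0.41 ± 0.19 (adjusted p = 0.515 and 0.172), and their probes disagreed. The other 2 Pparg probes gave -1.24 and -1.28 (adjusted p = 0.0433 and 0.0521 over probes), and the other 3 Ppara probes had estimates from -0.70 to -0.21, none of them called. Fabp4, a fatty acid carrier, rose by 2.14 ± 0.30 (adjusted p = 0.0136), Pdk4, which limits glucose oxidation, by 1.73 ± 0.21 (adjusted p = 0.0105), and Plin2, a coat protein of lipid droplets, by 1.54 ± 0.21 (adjusted p = 0.013). Acot1, an acyl-CoA thioesterase, fell by 2.47 ± 0.19 (adjusted p = 0.00536) and Cd36, a fatty acid receptor, fell by 1.58 ± 0.32 (adjusted p = 0.03). Without passage 7 replicate 1 or replicate 2, 4 of the 22 were called in each case. Of the adipocyte markers, 6 of the 11 on the array were well above background on no array, Plin1 and Cidec among them.

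Of 24 tested genes that endothelial cells use in VEGF and Notch signalling and in vessel guidance, 4 rose and 4 fell, at a median change of -0.04. Apln, a peptide ligand of sprouting vessels, fell by 2.96 ± 0.26 (adjusted p = 0.00653), S1pr1, a receptor that steadies vessels, fell by 2.29 ± 0.24 (adjusted p = 0.0086), and Notch1 fell by 2.01 ± 0.30 (adjusted p = 0.0153). Slit2, a guidance ligand, rose by 1.47 ± 0.27 (adjusted p = 0.0233; its second probe gave -0.12), Rcan1, a calcineurin inhibitor induced by VEGF, by 1.25 ± 0.17 (adjusted p = 0.0136) and Acvrl1, a receptor of bone morphogenetic proteins, by 1.11 ± 0.19 (adjusted p = 0.0202). Without passage 7 replicate 1 or 2, 3 and 4 of the 24 were called, and without passage 2 replicate 2, 5.

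**Figure D4:**
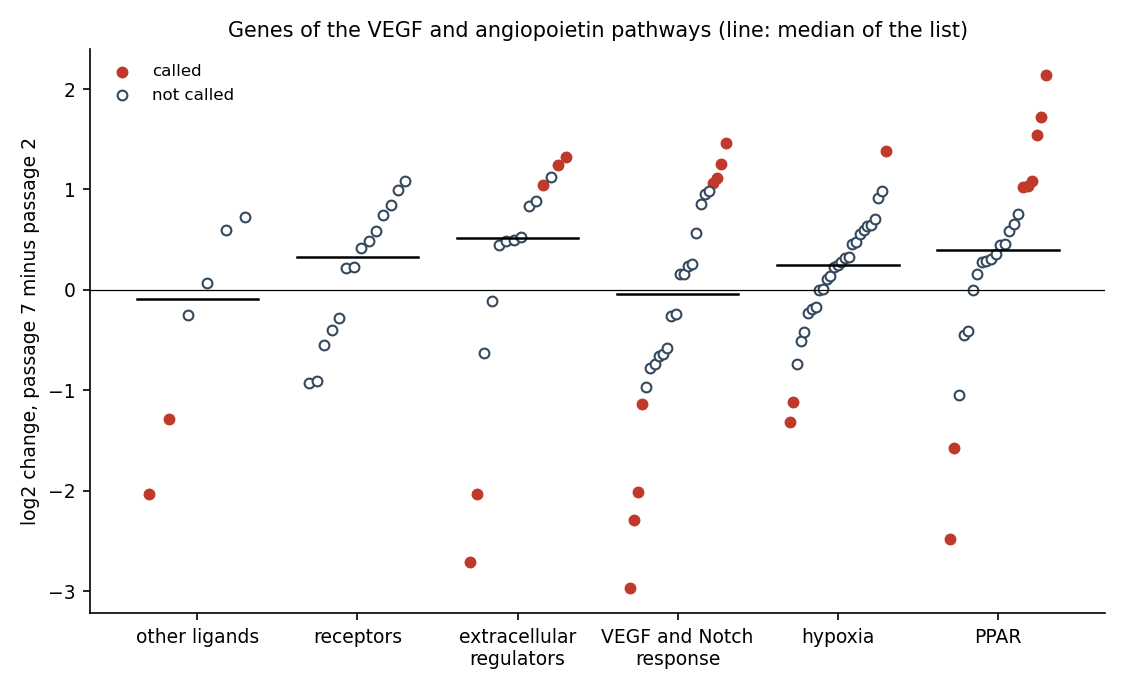
Change of each tested gene of the 6 pathway lists (y axis, log2, passage 7 minus passage 2; x axis, the list; filled points were called, lines are list medians). No receptor is filled, and the medians run from -0.09 for the other ligands to 0.52 for the extracellular regulators, around 0.20 for all genes.

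Some marker lists of cells other than fibroblasts differed in summed level between the passages, and their part in the changes of the 9 genes was not tested. Each level given for a marker list is log2 of the sum of its genes' scaled signals, so the brightest genes of a list weigh most. Endothelial markers summed to 2.33 and 2.35 at passage 7, against 2.08 and 1.60 at passage 2. The brightest of them, Egfl7 and Ecscr, had mean levels of 1.49 and 0.43 at passage 7, and neither was called (changes of 0.37 and 0.75). Of 13 tested, Emcn and Adgrf5 rose, from dimmer mean levels of -1.99 and -5.21 at passage 7, and none fell. Pecam1 changed by -0.15 ± 0.40 (adjusted p = 0.806) and Cdh5 by -0.71 ± 0.17 (adjusted p = 0.0442). Markers of pericytes and vascular smooth muscle, cells that make Angpt1, summed to 5.88 and 5.82 at passage 7, against 5.17 and 5.08 at passage 2. Of 10 tested, 3 were called higher (Rgs5, Myh11 and Acta2) and 2 lower (Des and Abcc9). Acta2 and Tagln were the brightest of them, with mean levels of 4.45 and 4.27 at passage 7. Macrophage markers summed to -0.09 and 0.19 at passage 7, against 1.32 and 1.24 at passage 2, with 6 of 8 tested lower and Ptprc well above background on no array. Markers of trophoblast, a cell type of the placenta, after which Pgf is named, summed to 0.30 and 0.48 at passage 7, against -0.69 and -1.20 at passage 2, with 2 of 8 higher and 1 lower. Keratinocyte markers summed to 5.10 and 5.11 at passage 7, against 3.33 and 3.15 at passage 2, with 4 of 12 higher and 1 lower, Krt14. Perp and Sfn, both higher, were the brightest of these, with mean levels of 4.28 and 3.35 at passage 7. Adipocyte markers summed to -2.14 and -1.60 at passage 7, against -1.79 and -2.21 at passage 2, with 1 of 4 tested higher, and these sums overlapped. Fibroblast markers summed to 9.29 and 9.85 at passage 7, against 9.02 and 8.67 at passage 2, with 2 of 11 lower, Pdgfra and Lum. The brightest was S100a4, which was not called, with a mean level of 8.68 at passage 7.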

How the data were processed

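Per the labels' protocols, 0.5 micrograms of RNA per array were labelled with Cy3; the Agilent design is a custom one. Per the file headers, spot intensity was read with Feature Extraction 10.5.1.1. The deposited processed signal is an intensity with background already subtracted. The authors' value table is on a log2 scale by comparison with the deposited spot signals (column medians 6.34 and 6.24 for passage 7, 6.42 and 6.41 for passage 2); its direction follows the signal, and its centring and background treatment are unknown. The submitters' processing notes name limma, with no version.

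Probes were named through RefSeq accessions and a gene table of GRCm38.p6: 31083 had 1 symbol and 12470 none. The array was designed on mm9, so probe coordinates are not given. From the processed signal of non-control spots without an outlier flag, log2 was taken and centred on the 75th percentile of each array. Spots of a probe were averaged, the brightest probe stood for its gene, and genes whose probe was well above background in both arrays of at least 1 passage entered limma 3.58.1 under R 4.3.3 (13848 genes, two-sided), with Benjamini-Hochberg adjustment. All adjusted p-values come from limma. The procedure was tested on simulated data whose added changes were all well past the fold minimum, so changes near that minimum were not covered. Alternatives changed the scaling, background, filter, variance model, probe choice and arrays used. The normexp correction used the median spot signal with an offset of 50. When 1 array of a passage is left out, the lone one is assumed to vary like the other group.

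The members, gene lists and tests were chosen with earlier results of these data known. The rule for naming took all members and probes, the ligands and 7 receptors listed, Hif1a, Epas1, Ppard, Pecam1, Cdh5 and Cdkn2a whatever their values, and up to 3 rises and 3 falls called in each pathway list. The result of 1 gene that the rule takes is not reported here. Itgb1, Ppara, Pparg, Cldn5, Ptprc, Plin1, Cidec, Emcn, Adgrf5, Pdgfra and Lum were named after their values were seen. So were Egfl7, Ecscr, Rgs5, Myh11, Acta2, Tagln, Des, Abcc9, Krt14, Perp, Sfn and S100a4. Of the genes listed, 10 had no named probe and are not analysed here.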

Additional observations from a re-analysis of the deposited data

How the results depend on the processing

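Over the 9 genes and 15 other settings, 102 of the member changes kept their sign and their side of the thresholds, 23 lost the call, 6 gained it and 4 turned sign. The turned signs were Angptl2 at -0.18 under quantile normalisation and -0.12 under normexp, and Vegfc at 0.065 without passage 2 replicate 2 and 0.03 without passage 7 replicate 1 (range without 1 array -0.18 to 0.065). The number of members called, 4 as reported, was 2 with the authors' value table and 1 with normexp, with no filter on dim probes and with the replicate block. Members higher numbered 1 under quantile normalisation, median scaling, the authors' table, normexp, no filter and the replicate block. Members lower numbered 4 under median scaling, 1 with the authors' table and with the mean of all probes, and 0 under normexp, no filter and the replicate block. Leaving out 1 array gave 1 to 5 members called, 1 to 2 higher and 0 to 3 lower. Member probes called, 6 as reported, were 0 with no filter and with the replicate block, and 0 to 8 without 1 array. For the lists, quantile normalisation gave 3 extracellular regulators; median scaling gave 1 receptor; the authors' table gave 3 extracellular regulators and 5 PPAR genes; normexp gave 0 other ligands, 3 extracellular regulators, 5 PPAR genes and 4 endothelial response genes; no filter gave 1 other ligand, 4 PPAR genes and 4 endothelial response genes; the filter on all 4 arrays gave 1 other ligand; the mean of probes gave 1 receptor. The replicate block gave 0 other ligands, 2 extracellular regulators, 0 hypoxia genes, 3 PPAR genes and 3 endothelial response genes. Without 1 array the ranges were 1 to 2 other ligands, 0 to 3 receptors, 2 to 6 extracellular regulators, 0 to 4 hypoxia genes, 4 to 7 PPAR genes and 3 to 9 endothelial response genes. Settings added after seeing the data were no fold minimum, with 1 receptor and 5 hypoxia genes, and a crossed replicate block, with 1 receptor and again 4 members called. Same-numbered arrays did not deviate together (r = -0.17 across 13848 genes). With 2 arrays per passage, this correlation cannot settle whether the numbers pair the arrays. Over all genes 1384 rose and 1305 fell (51.5% of calls higher); this was 522 and 651 with the replicate block, 897 and 874 with no filter, 470 to 2068 rises and 689 to 1387 falls without 1 array, 732 and 1340 (35.3% higher) with the authors' table, 696 and 928 under normexp, and 1236 and 1767 (41.2%) under median scaling. The cause of these differences was not tested, beyond the fewer genes or arrays that some settings use. Spot signal over background sets how far dim probes can be read; Pgf and Angpt4 had low signals, and all 17 member probes were well above background.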
